A study of Homo sapiens with 9 samples.

Results

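The expression state of RKO cells before any treatment was described from 2 of the 9 arrays of the series, those of cells given a control siRNA and no drug (siCONT). The 2 arrays were chosen by their labels alone. RKO is a human colorectal cancer cell line with extensive CpG island hypermethylation. The siCONT cells received a non-targeting siRNA for 72 h and then the drug vehicle for 24 h, so that RNA was taken 96 h after transfection. The other groups were siUHRF1 (2 arrays, each with a different siRNA against UHRF1, same vehicle), siCONT + TSA (2 arrays, 300 nM trichostatin A in the last 24 h), siUHRF1 + TSA (2 arrays, both agents) and 5-aza-dC (1 array, cells given 1 µM 5-aza-2′-deoxycytidine for 72 h and no siRNA). All 8 siRNA arrays, controls included, therefore came from transfected cells of 1 line. No label says that the replicates of siCONT or of siCONT + TSA were separate cultures, so that their spread, which enters every p-value, may be technical.

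A colon cell is built from layers of gene expression. Nearly every dividing cell uses the ribosome, glycolysis and cell cycle genes, a smaller set of transcription factors such as CDX2 and the HOX genes marks its place along the gut, and a last set of digestive, mucus and hormone genes appears when the cell matures. In colorectal tumors with CpG island hypermethylation, promoters rich in CpG can become methylated and their genes silent. UHRF1 brings the methyltransferase DNMT1 to newly copied DNA, 5-aza-dC traps DNMT1 and lowers methylation, and TSA blocks histone deacetylases.

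A microarray probe is a short DNA fragment bound to glass, and its brightness follows the amount of matching RNA. A gene was called on when at least 1 of its probes was well above background on both siCONT arrays, off when no probe was on either array, and between otherwise. Of the 21364 genes that could be named, 13144 were on (61.5%), 553 were between and 7667 were off (35.9%). These shares are the background against which each group of genes is read below. Off means only that no probe of the gene read well above background. In a population of cells, fewer cells that use a gene and less RNA per cell cannot be told apart.

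Of the brightest genes with a listed promoter, 41 of 70 had a short feature at the point where their RNA starts, shown here for 6 of them. The 6 were picked because they have it, from ribosomal protein genes and EEF1A1 with a single listed start. They are examples and no evidence that bright genes have the feature. Each line holds 20 bases before the first base of the RNA and the first 10 bases of the RNA, from the RefSeq promoter table (GRCh38.p14), 5′ to 3′ on the strand of the gene. Capitals mark the unbroken run of C and T at the start, a feature known as the terminal oligopyrimidine tract of ribosomal mRNAs.
RPL7A, chr9:133348198-133348227, plus strand: attacccacaattccctttcCTTTCTCTCT
EEF1A1, chr6:73521023-73521052, minus strand: cagtagtcgccgtgaacgttCTTTTTCgca
RPL35, chr9:124861948-124861977, minus strand: aggtcagccccgcctacttcCTCTTTCCCT
RPS18, chr6:33272055-33272084, plus strand: gatatcgcgtcacttccgctCTCTCTTCCa
RPS21, chr20:62387083-62387112, plus strand: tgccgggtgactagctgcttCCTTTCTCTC
RPLP0, chr12:120201102-120201131, minus strand: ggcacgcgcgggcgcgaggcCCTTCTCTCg

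A second set of sequences shows the promoters of 3 genes whose states differed. Each line holds the 250 bases before the start, with every CG in capitals. UCHL1, a ubiquitin hydrolase gene, had 20 CG in this stretch and was off. CDX2, the master transcription factor of intestinal identity, had 10 and was on. KRT20, a keratin of mature colon cells, had 2 and was off.
UCHL1, chr4:41256678-41256927, plus strand: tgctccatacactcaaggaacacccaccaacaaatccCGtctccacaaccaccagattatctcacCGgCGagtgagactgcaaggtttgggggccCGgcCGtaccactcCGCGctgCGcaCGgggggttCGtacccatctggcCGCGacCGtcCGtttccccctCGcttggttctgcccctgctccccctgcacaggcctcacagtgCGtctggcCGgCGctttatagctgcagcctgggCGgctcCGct
CDX2, chr13:27969316-27969565, minus strand: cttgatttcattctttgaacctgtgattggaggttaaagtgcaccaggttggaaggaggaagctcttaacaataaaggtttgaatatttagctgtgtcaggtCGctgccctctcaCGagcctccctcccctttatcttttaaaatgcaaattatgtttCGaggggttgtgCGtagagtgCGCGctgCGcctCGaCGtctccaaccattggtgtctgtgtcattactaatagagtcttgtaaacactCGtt
KRT20, chr17:40885243-40885492, minus strand: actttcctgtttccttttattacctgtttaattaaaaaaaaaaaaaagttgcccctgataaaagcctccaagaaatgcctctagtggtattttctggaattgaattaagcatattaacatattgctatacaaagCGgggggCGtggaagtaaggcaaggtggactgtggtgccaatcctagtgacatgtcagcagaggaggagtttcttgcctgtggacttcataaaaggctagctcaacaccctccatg

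The 2 siCONT arrays gave nearly the same picture. On each array the 75th percentile of all signals, used to scale the arrays, was 282 and 285, against 245 to 338 over the 8 siRNA arrays and 822 for 5-aza-dC. Of 50599 probes, 23005 (45.5%) were well above background in replicate 1 and 22608 (44.7%) in replicate 2, of which 21998 were in both. Across those 21998 probes the log2 signals correlated with r = 0.997, a value over probes, which are not independent replicates. The median absolute log2 difference between the arrays was 0.0634. The difference shrank with brightness, from a median of 0.185 in the dimmest 20% of these probes to 0.0308 in the brightest 20%, and only 63 probes differed by more than 1 on the log2 scale. No spot was saturated. Of 7088 genes with more than 1 probe, 1543 (21.8%) were on with at least 1 probe off, so that a state can depend on the probe. With 2 arrays, their number limits the precision of every level below.

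A few probes stood far from this agreement. The probe of METTL25B, a methyltransferase-like gene, read 637 in replicate 1 and 19688 in replicate 2, and the other 6 siRNA arrays lay between 585 and 865. One of 3 probes of the ribosomal gene RPL26 read 43802 and 4515, against 32751 or more on the other 6 arrays. Both genes thus had replicate 2 as the array that stood apart. The probes of ZDHHC22 (244 and 23.3) and SNAI3-AS1 (269 and 33.8) stood apart in replicate 1, and that of DEFB108B (31.7 and 226) in replicate 2. Some probes were seen on 1 array alone, among them those of SI, the sucrase of the gut lining (2.92 and 181), and of SOX17, an endoderm transcription factor (3.46 and 214). For both, the other 6 siRNA arrays read below background, and the genes were counted as between. SI and SOX17 were singled out after their values were seen.

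**Figure D1:**
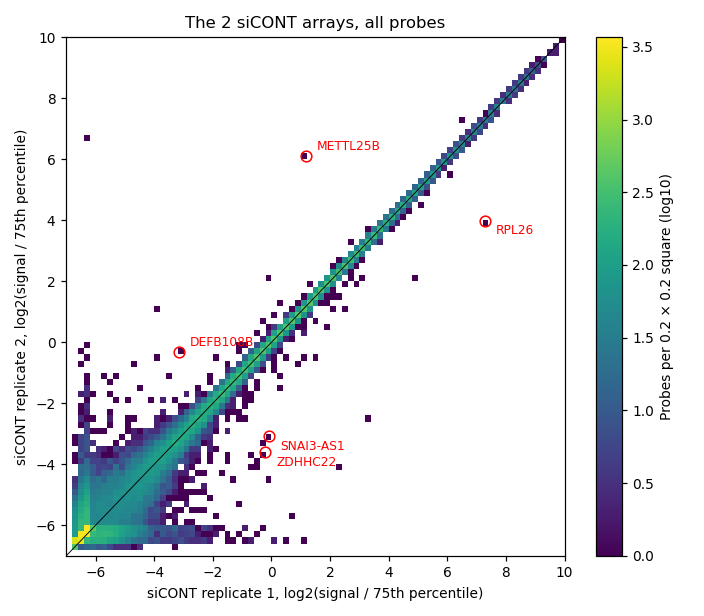
Log2 signal over the 75th percentile of the array in siCONT replicate 1 (horizontal) and replicate 2 (vertical), with color giving the log10 number of probes in each square of 0.2 by 0.2 and a line of equality. The 5 circled probes, among those above background on both arrays, differed most, with METTL25B at 637 and 19688, while the cloud narrows toward the bright end.

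Ribosomal protein genes made up most of the brightest genes, beside small noncoding RNAs of the SNAR family. Ranked by mean signal, the first was SNAR-A3, a small noncoding RNA, with 282814 and 268322 on the 2 arrays. RPS2, a protein of the small ribosomal subunit, followed with 250108 and 233922, and RPL13, of the large subunit, with 229422 and 243339. The order of neighbors in this ranking changed from array to array, and brightness depends on the probe as well as on the amount of RNA. RPS2 shows this, since its 6 probes ranged in replicate 1 from 1196 to 250108.

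Other genes of the 20 brightest named probes were SNAR-B2, RPL7A, EEF1A1, RPL35, SNAR-D, RPS18, RPL6, RPL23, RPS21, RPS26, RNA28SN5, RPLP0, SLC66A1 and SNAR-H. EEF1A1, the elongation factor that carries tRNA to the ribosome, read 205164 and 215547. SLC66A1, a lysosomal amino acid transporter, read 161798 and 155663 on its 1 probe and was the only protein-coding gene among them outside translation. Its level was alike on the other 6 siRNA arrays, from 141226 upward. SNAR genes, RNA28SN5 and the ribosomal genes have near-identical copies elsewhere in the genome, so that their signals cannot be assigned to 1 locus.

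Of the first 100 distinct gene symbols in the ranking, 61 encoded cytosolic ribosomal proteins, 2 were translation factors and 6 began with SNAR. The cytoskeleton and chaperone lists gave 1 symbol each, and 88 of the 100 were protein coding. The signal was concentrated, since the 100 brightest probes held 22.1% of the summed signal of all probes and the 1000 brightest held 68%. The cytosolic ribosomal proteins were on in 77 of 78 genes. The exception was RPL27A, whose 1 probe read 20.3 in replicate 1, above background, and 18.1 in replicate 2, not above it.

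The pyrimidine start was common among the brightest genes, though not in all of them. A C at the first base of the RNA followed by 4 bases that were each C or T was found in 47 of 63 ribosomal protein genes with a promoter in the table (74.6%). It was found in 41 of 70 of the brightest genes (58.6%), most of which are the same ribosomal genes, and in 997 of all 16054 genes (6.21%). Moving the window by 1 base lowered the share of ribosomal genes to 33.3% upstream and 28.6% downstream, so that the feature sat at the annotated start.

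The basic machinery of a dividing cell was on throughout. All 19 glycolysis genes were on, led by LDHB, a lactate dehydrogenase (60560 and 53857), with GAPDH at 37241 and 38022. All 22 cytoskeleton genes were on, with ACTB at 79378 and 77600 and TUBA1B at 57085 and 57451. All 15 translation factors were on as well, which made these lists complete against 61.5% of all genes. The 28 proliferation genes were also all on, including MCM7 of the replicative helicase (36985 and 37432), BIRC5, an inhibitor of apoptosis (9892 and 9971), RRM1, CCNB2 and TYMS. MKI67, the usual mark of cycling cells, read 596 and 606 and was named after its value was seen. Among 17 chaperones 16 were on, led by HSPD1 (81580 and 87446), and the 1 off was HSPA1A, the stress-inducible HSP70, at 3.25 and 3.54.

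**Figure D2:**
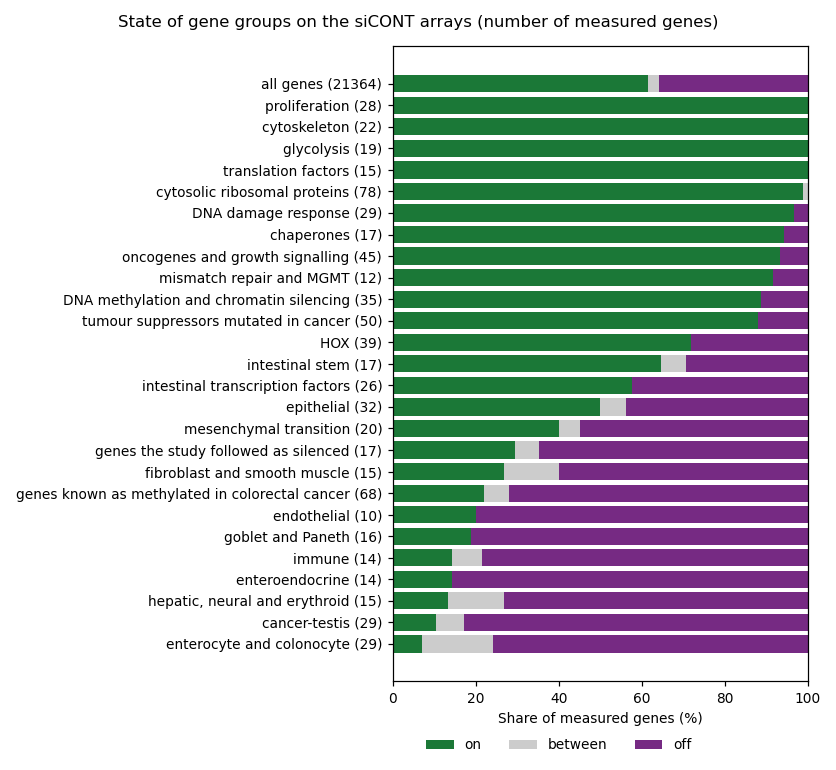
Share of measured genes (%, horizontal) that were on, between or off on the 2 siCONT arrays, for each of the 26 gene lists and for all genes, with the number of genes in brackets. Housekeeping lists were on in nearly all genes, 61.5% of all genes were on, and the lists of mature gut cells, other cell types and cancer-testis genes were mostly off.

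The epithelial program was split. Of 32 epithelial genes 16 were on, against 61.5% of all genes, 2 between and 14 off. KRT18, a keratin of simple epithelia, read 12117 and 12432. PKP3, a desmosomal plaque protein, read 11813 and 12152. KRT7 read 3773 and 3918, ESRP2, an epithelial splicing factor, 1649 and 1676, and KRT8 1161 and 1154. These keratin and desmosome genes were bright on both arrays.

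CDH1, the E-cadherin of epithelial junctions, was off with 3.31 and 3.58 on its 1 probe. KRT19 read 3.69 and 4.03, KRT23 2.94 and 3.15, and CLDN1 3.81 and 4.25, none above background. CLDN4 read 15.0 and 18.2, which was close to the level at which a probe could be called. EPCAM, a surface protein of most carcinomas, read 29.3 in replicate 1 and 3.53 in replicate 2, so that the arrays disagreed on it. The epithelial transcription factors GRHL2, OVOL1, ELF3 and EHF were all off as well, and were named after their states were seen.

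The mesenchymal program was split too, with 8 of 20 genes on (40.0%), 1 between and 11 off. AXL, a receptor tyrosine kinase, read 7517 and 7588. SNAI1, a repressor of CDH1, read 630 and 706, ITGA5 348 and 340, and ZEB1, another such repressor, 210 and 224. VIM, the mesenchymal intermediate filament, read 216 and 212. CDH2, FN1, ZEB2, SNAI2 and TWIST1 were off, with signals from 2.84 to 13.6. RKO cells at baseline therefore had genes of both programs on and genes of both off.

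Intestinal transcription factors were on at a share near that of all genes, and genes of mature gut function were mostly off. Of 26 intestinal transcription factors 15 were on (57.7%, against 61.5% of all genes) and 11 off. MYB read 1364 and 1423, CDX2 779 and 757, and VDR, the vitamin D receptor, 625 and 623. ONECUT2 read 434 and 412 and GATA6 434 and 393. All of these were on with closely matching arrays.

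HNF4A, GATA5 and FOXA2 were off, with signals between 3.01 and 7.51. Among the genes of mature absorptive cells only 2 of 29 were on, 5 were between and 22 off, against 61.5% of all genes on. CA2, a carbonic anhydrase, read 863 and 900, and CEACAM1, an adhesion protein, 253 and 249. ALPI, VIL1, LCT, DPP4 and FABP1, which encode brush border enzymes, a microvillus protein and a fatty acid carrier, were off between 3.49 and 12.3. KRT20 read 3.65 and 3.93.

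Genes of the secretory lineages were mostly off too, with 18.8% of goblet and Paneth and 14.3% of enteroendocrine genes on, against 61.5% of all genes. Of 16 goblet and Paneth cell genes 3 were on, namely FCGBP (49.9 and 67.4), TFF1 (47.8 and 42.7) and the mucin MUC2 (43.3 and 46.0, with 2 of its 4 probes on). MUC5AC, MUC5B, TFF2, TFF3 and SPINK4 were off. Of 14 enteroendocrine genes 2 were on, NEUROG3, which starts the endocrine lineage (227 and 242), and GCG, the glucagon precursor (39.7 and 31.9). The hormone granule genes CHGA and CHGB, and SYP, INSM1 and NEUROD1, were off. The intestinal stem cell list was on in 11 of 17 genes, close to the share of all genes. Its Wnt feedback gene ZNRF3 read 1972 and 2079, LRIG1 703 and 713, BMI1 527 and 537, CD24 518 and 510 and EPHB2 345 and 385. LGR5, the classical stem cell receptor, was off with 2.86 and 3.13, as were ASCL2, OLFM4, SMOC2 and EPHB3.

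**Figure D3:**
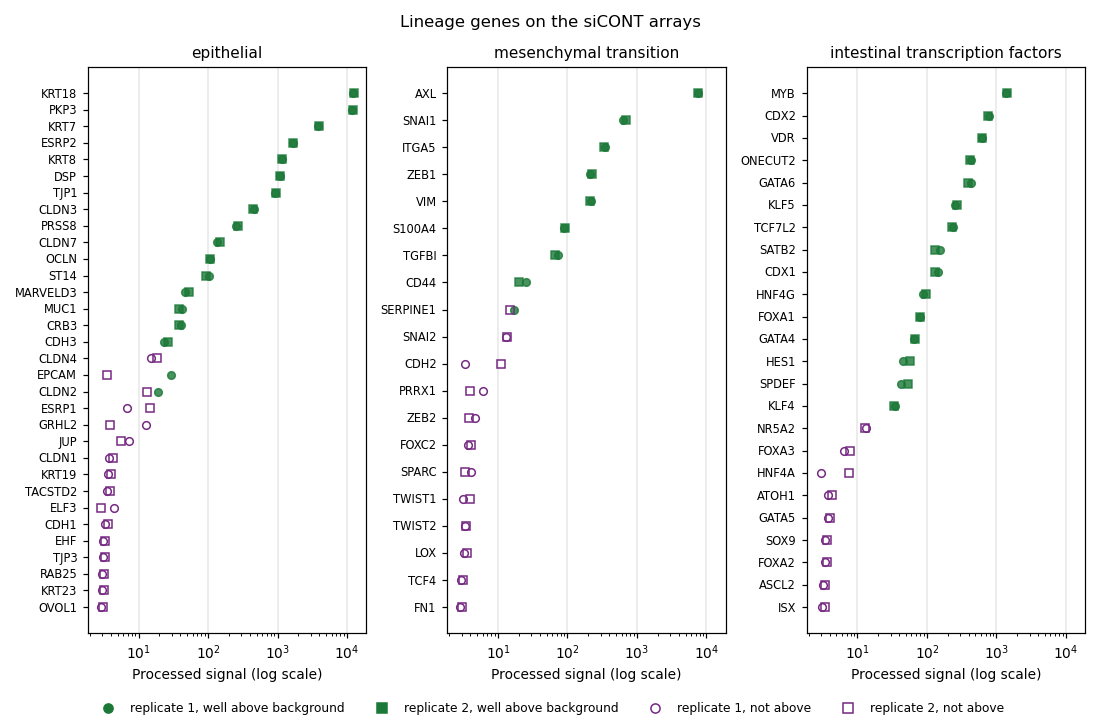
Processed signal (log scale, horizontal) of each epithelial, mesenchymal and intestinal transcription factor gene on siCONT replicate 1 (circles) and replicate 2 (squares), filled where well above background. Each list runs from bright genes such as KRT18, AXL and MYB to genes near 3, among them CDH1, FN1 and ISX, with few genes in which the 2 arrays part.

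The HOX genes, which encode position along the body axis, were on in 28 of 39 (71.8%, against 61.5% of all genes). By cluster, 9 of 11 HOXA genes, 9 of 10 HOXB genes and 7 of 9 HOXC genes were on, against 3 of 9 HOXD genes. HOXA9 was the brightest with 5132 and 5123, followed by HOXB2 (4570 and 4535), HOXB9 (4402 and 4630), HOXB6 (3234 and 3125) and HOXC6 (2252 and 2218). HOXA2, HOXB1, HOXC11 and HOXC12 were off, as were HOXD1, HOXD4 and HOXD10 to HOXD13. No test was made between clusters, whose neighboring genes are not independent.

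Genes of cell types other than epithelium were mostly off, with 13.3% to 26.7% of each list on, against 61.5% of all genes. Of 14 immune genes 2 were on, CD79A of the B cell receptor (1022 and 1073 on its 1 probe) and the lysosomal CD68 (942 and 874), while CD3D, CD3E, MS4A1 and CD14 were off and PTPRC, the pan-leukocyte marker, read 14.7 and 19.4 and was between. Of 10 endothelial genes CDH5 (27.9 and 26.5) and VWF were on, VWF only by 1 of its 3 probes, and PECAM1 was off. Of 15 fibroblast and smooth muscle genes 4 were on, TAGLN (2451 and 2476), DES (259 and 301), CNN1 (101 and 96.2) and COL1A1 (48.8 and 38.5), while COL1A2, COL3A1 and DCN were off. Of 15 hepatic, neural and erythroid genes 2 were on, among them RBFOX3 (312 and 318, by 1 of its 2 probes), and ALB, AFP and HBB were off. Whether other RNAs bind the probes of CD79A and RBFOX3 was not tested. Of the smooth muscle genes in that list TAGLN, DES and CNN1 were on, ACTA2 was between (31.9 and 18.2) and MYH11 off (6.56 and 8.71). ACTA2 and MYH11 were named after their values were seen. The whole fibroblast and smooth muscle list was on in 26.7%, against 61.5% of all genes.

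The tumor suppressors that are lost by mutation in cancer were mostly on, in 44 of 50 genes (88.0%, against 61.5% of all genes). B2M, needed to display antigen, was brightest with 19963 and 20458. SMARCA4, the motor of a chromatin remodeling complex, read 14646 and 14519, VHL 6205 and 6427, NF2 5398 and 5566, and the apoptosis gene BAX 4316 and 4326. Well-known colorectal suppressors were also on: APC at 134 and 135, SMAD4 at 1723 and 1840, and TGFBR2 at 258 and 238, a set named after the values were seen. The level of an RNA does not show whether the protein is intact.

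The 6 suppressors that were off were CDKN2B, WT1, EP300, SOX9, CDH1 and DCC. CDKN2B, an inhibitor of CDK4 and CDK6, read 8.94 and 12.05. WT1 read 3.45 and 3.72, and DCC, a netrin receptor, 3.22 and 3.48. EP300, a histone acetyltransferase, read 3.16 and 4.96 on its 1 probe, while its partner CREBBP was on at 508 and 507. All 6 rested on 1 probe each.

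Oncogenes and growth signaling genes were on in 42 of 45 (93.3%, against 61.5% of all genes). MYC read 20031 and 20684, MET 6674 and 6698, CDK4 5496 and 5651, CDK6 4815 and 4817 and CTNNB1, the beta-catenin gene, 3247 and 3378. The 3 off were ERBB4, EREG and MYCN. Genes known to be induced in the DNA damage and stress response were on in 28 of 29 (96.6%, against 61.5% of all genes). GDF15, a secreted stress factor, led at 64492 and 64588, followed by FDXR (13649 and 13703), SFN (7925 and 8074), GADD45A (6774 and 6598) and DDB2 (5611 and 4048). SPATA18 was the 1 off. The arrays matched in all these genes but DDB2, which was lower in replicate 2.

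Genes of mismatch repair and related DNA repair were on in 11 of 12 (91.7%, against 61.5% of all genes). The replicative polymerase gene POLD1 read 2729 and 2799, MSH6, a mismatch sensor, 2510 and 2596, and MGMT, which removes methyl groups from guanine, 2396 and 2495. PMS2 read 1181 and 1235 and MUTYH 965 and 941. The arrays matched in each of these genes.

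Genes of DNA methylation and chromatin silencing were on in 31 of 35 (88.6%, against 61.5% of all genes). UHRF1, the target of the siRNAs, read 1816 and 1837 at baseline, and it checked the labels in the other arrays: it read 433 and 292 in siUHRF1 and 223 and 178 in siUHRF1 + TSA, but 1793 and 1860 in siCONT + TSA. DNMT1, its partner, read 1236 and 1192. HDAC1, a target of TSA, read 4654 and 4735, HDAC3 3534 and 3338, and the methyl-CpG reader MBD2 3466 and 3326. PCNA read 4125 and 4269 and TDG 2973 and 3016. The 4 off were DNMT3L, TET1, TET3 and HDAC9.

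Genes known to be methylated in colorectal cancer were largely off, 49 of 68, with 15 on (22.1%, against 61.5% of all genes) and 4 between. The brightest on were SEPTIN9 (24552 and 24641), MGMT, RASSF1 (1844 and 1943), NEURL1 (1563 and 1534) and NDRG4 (644 and 722). CDKN2B, SFRP1, SFRP2 and SFRP4 were among those that were off. The list was drawn from knowledge of tumors, but with earlier results of these data known, so that its states are not independent evidence. No methylation was measured on these arrays.

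The 17 genes that the study itself followed as silenced were in part on in these cells. This list was made with the same cell line in view, so that its states are not independent evidence. NEURL1 was the brightest of the 5 that were on, followed by DKK1, a secreted Wnt inhibitor (145 and 159), and CDKN2A, which encodes p16 and p14 (96.3 and 113, by 1 of 2 probes). GATA4 read 64.6 and 68.3 and SOCS1, a cytokine signaling inhibitor, 41.3 and 46.1. CRABP1 was between, at 33.9 and 10.8. By the definition of on, each of the 5 had a probe above background on both arrays.

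The 11 that were off included the Wnt inhibitors SFRP1 (3.52 and 4.26), SFRP2 (3.09 and 3.36) and SFRP5 (5.71 and 4.02). The transcription factors GATA5 (3.73 and 4.10), RUNX3 (3.88 and 3.27) and NEUROG1 (3.09 and 3.31) were off as well. UCHL1 read 2.72 and 2.93, TIMP3, a protease inhibitor, 3.18 and 3.46, and CACNA1G, a calcium channel, 10.4 and 4.26. IGF2, a growth factor, read 10.4 and 9.80. Probes not above background had a median of 3.54 and 3.82 on the 2 arrays.

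**Figure D4:**
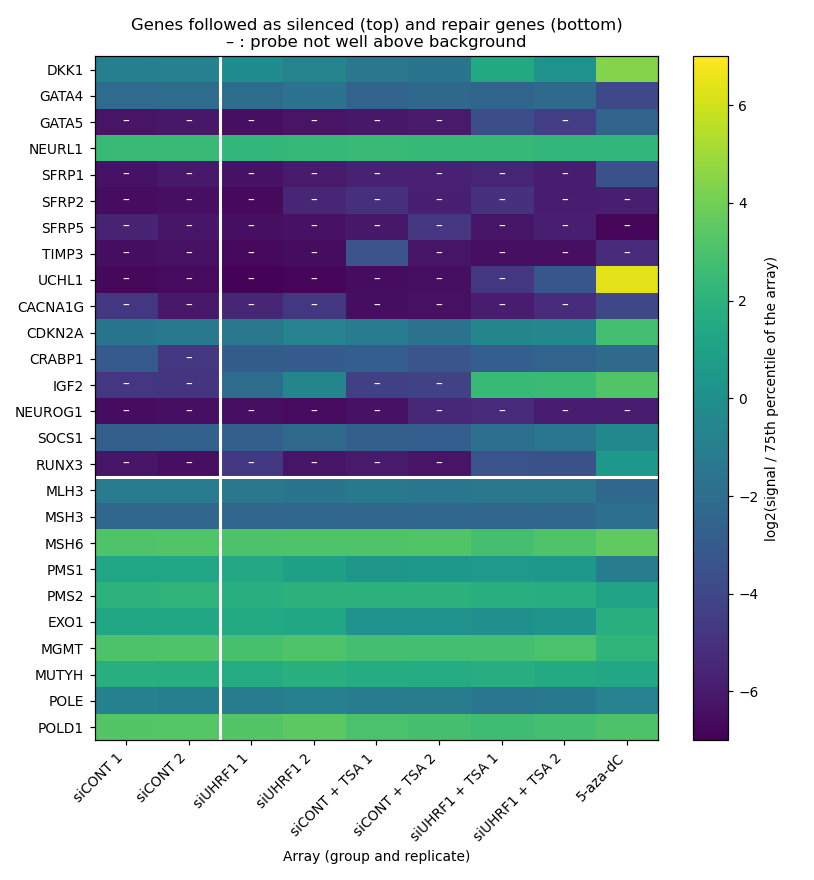
Log2 signal over the 75th percentile of the array (color) for genes followed as silenced (rows above the horizontal line) and repair genes (rows below it) on all 9 arrays (columns), with a dash where the probe was not well above background and the 2 siCONT arrays at the left of the vertical line. UCHL1 carries a dash on the siCONT arrays and is bright with 5-aza-dC (69016), while the repair genes drawn are above background throughout.

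Cancer-testis genes, which healthy adults use only in germ cells, were off in 24 of 29, with TEX101 and STK31 between. The share on was 10.3%, against 61.5% of all genes. Of the 3 that were on, PRAME read 395 and 395 and SSX2 32.2 and 34.6. MAGEA6 was dim, at 26.4 and 26.0 with 1 of 2 probes on, and its family has near-identical members. MAGEA1, MAGEA4, MAGEA10, MAGEA11 and MAGEA12 were off.

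The kind of gene and its place also went with its state. Of 18543 protein-coding genes 64.4% were on, of 1687 long noncoding RNAs 34.3% and of 302 small nucleolar RNAs 68.5%. Among chromosomes, the share of protein-coding genes on was highest on chromosomes 16 and 22 (74.0% on the latter), followed by 15 (71.6%), and lowest on X (50.6%), 4 (55.2%) and 11 (55.3%). These are descriptions without a test.

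Promoter CpG content separated on genes from off genes over the whole array. For the 16054 genes found in the RefSeq table (75.1% of those named), the ratio of observed to expected CpG was taken in the 300 bases around the start. The median ratio was 0.816 in on genes, 0.397 in off genes and 0.939 in the brightest genes. The share of genes on rose with each step of the ratio, from 18.8% under 0.2 to 86.4% over 1.0. CpG-rich promoters (a ratio of at least 0.6 with GC of at least 0.5 at every listed start) were on in 80.0% of 9051 genes, CpG-poor promoters in 31.4% of 5061.

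Genes known to be methylated in colorectal cancer went against this pattern. Of the 33 with a CpG-rich promoter, 8 were on (24.2%) and 22 off (66.7%), where 18.4% of all CpG-rich genes were off. UCHL1 is 1 of the 22, and its CG-dense sequence was printed above. Genes of mature absorptive cells had CpG-poor promoters in 19 of 21 cases. The motif TATAAA, read on either strand, was found in 8.46% of on genes, 19.0% of off genes and 11 of 40 genes of mature gut lineages (27.5%), with 12.2% over all promoters. GGGCGG, the core bound by SP1, was found in 75.6% of on genes, 43.0% of off genes and 64.0% of all. A match is a description of letters, not a site in use.

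**Figure D5:**
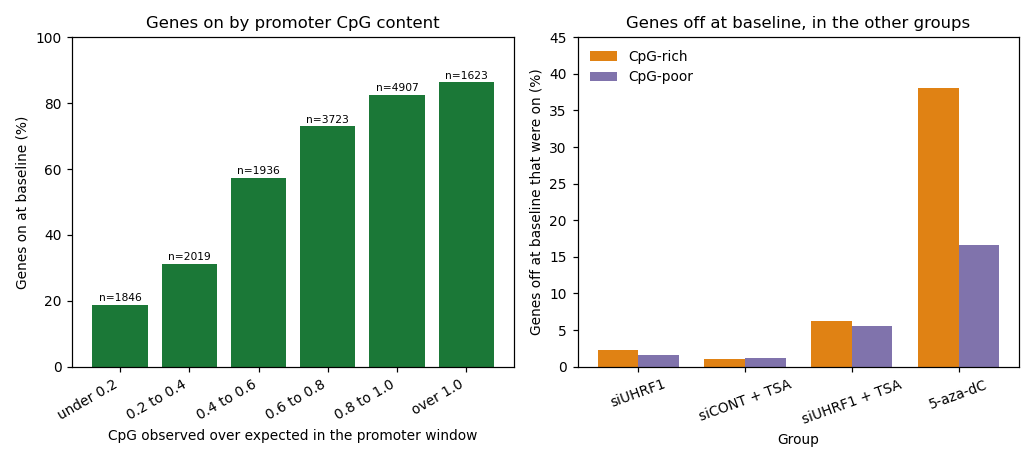
Left, share of genes on at baseline (%) by the observed over expected CpG ratio of the promoter window, with the number of genes above each bar, rising from 18.8% to 86.4%. Right, share (%) of genes off at baseline that were on in each other group, for CpG-rich and CpG-poor promoters, which part most with 5-aza-dC (38.1% and 16.6%).

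Which of the silent genes could be switched on was read from the other arrays. A gene counted as switched on where it was off at baseline and had a probe above background on every array of the group. Of the 7667 off genes 2.14% were on in siUHRF1, 1.2% in siCONT + TSA, 6.2% in siUHRF1 + TSA and 24.6% with 5-aza-dC. The 5-aza-dC array was 1 array of another slide and scan, brighter throughout and without siRNA, so that drug, slide and brightness cannot be told apart there and no test was possible. With 5-aza-dC 38.1% of CpG-rich off genes and 16.6% of CpG-poor ones were on, while in siUHRF1 + TSA the shares were 6.2% and 5.53%.

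Of the 24 cancer-testis genes that were off 6 were on in siUHRF1 (against 2.14% of all off genes), none in siCONT + TSA (against 1.2%), 15 in siUHRF1 + TSA (against 6.2%) and 24 with 5-aza-dC (against 24.6%). CTAG1A, the NY-ESO-1 antigen gene, read 6.93 and 3.72 at baseline and 2141 and 2773 in siUHRF1 + TSA, at least 175-fold higher. SPANXB1 reached 3101 and 1771 there, at least 169-fold higher, and XAGE1A 1744 and 1764, at least 126-fold higher. SOHLH1 rose at least 72.2-fold, CTAG2 44.9-fold, SPANXA1 25.1-fold, MAGEA4 10.1-fold and MAGEC1 9.60-fold, each a lower bound set by the dimmest signal that counted as above background at baseline. These genes were picked as off in siCONT and bright in another siRNA group, so that the gap follows from the choice. With a weaker test of signal over background (the flag gIsPosAndSignif) CTAG1A, CTAG2, SPANXA1, SPANXB1 and IGF2 counted as on at baseline, so that they would not be among the genes switched on.

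IGF2 read 10.4 and 9.80 in siCONT, 82.6 and 180 in siUHRF1, 12.1 and 13.0 in siCONT + TSA, and 1524 and 1608 in siUHRF1 + TSA. It was above background in siUHRF1 and at least 113-fold above baseline in siUHRF1 + TSA. TIMP2, an inhibitor of metalloproteases, read 2.83 and 3.09 at baseline, 112 and 156 in siUHRF1 and 410 and 545 in siUHRF1 + TSA, at least 34.0-fold higher. Both genes stayed below background in siCONT + TSA.

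Of the 49 off genes known as methylated in colorectal cancer, 2 were on in siUHRF1 (4.08%, against 2.14% of all off genes), 8 in siUHRF1 + TSA (16.3%, against 6.2%) and 23 with 5-aza-dC (46.9%, against 24.6%). Of the 11 genes the study followed that were off, IGF2 was on in siUHRF1 (9.09%), and IGF2 and RUNX3 in siUHRF1 + TSA (18.2%). On the 5-aza-dC array UCHL1 read 69016, IGF2 7475, RUNX3 1140, GATA5 142, SFRP1 75.1 and CACNA1G 51.5, all on. These signals are unscaled and that array was brighter. With the arrays scaled, the lower bounds on fold over siCONT ran from 1.25 for CACNA1G and 1.81 for SFRP1 to 1679 for UCHL1. LOX and the cancer-testis gene SYCP1 counted as on there with bounds of 0.857 and 0.789, so that no rise is shown for them. SFRP2, SFRP5, TIMP3 and NEUROG1 were still below background.

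Few genes of gut lineages that were off at baseline were on in the siRNA groups, where few of all off genes were. In siUHRF1 + TSA 3 of 14 epithelial genes were on (21.4%, against 6.2% of all off genes), namely KRT19, CLDN4 and JUP, and CDH1 was not among them. ESRP1 was the 1 epithelial gene on in siUHRF1. TFF3, a secreted factor of goblet cells, read 3.31 and 3.56 at baseline and 84.5 and 58.0 in siUHRF1 + TSA, and the hormone gene CCK 3.64 and 4.97 at baseline and 225 and 37.7 there. ASCL2, a stem cell transcription factor, and MYO1A, a brush border myosin, were the other gut genes on in that group. In siCONT + TSA NR5A2 and PAX4 were on. MYO1A (19.3 and 21.8), NR5A2 and PAX4 were near the border of detection (22.0 or less). With the weaker flag gIsPosAndSignif CLDN4, JUP, ESRP1, MYO1A, NR5A2 and PAX4 counted as on at baseline. None of the 11 mesenchymal and none of the 11 HOX genes off at baseline was on in these 3 groups. Such counts are too small to set against 2.14%, 1.2% and 6.2% of all off genes. Lists of other cell types were mixed in siUHRF1 + TSA. There 4 of 9 off fibroblast and smooth muscle genes (44.4%) and 2 of 11 off immune genes (18.2%) were on, against 6.2%. Among them DCN was near the border of detection (15.6 and 18.8). No endothelial and no hepatic, neural or erythroid gene off at baseline was on there. With 5-aza-dC 7 of 11 HOX genes, 7 of 11 mesenchymal genes, 7 of 11 intestinal transcription factors (each 63.6%) and 6 of 14 epithelial genes (42.9%) that were off were on, against 24.6% of all off genes. Of the 22 off genes of absorptive cells 3 were on there (13.6%). CCK, MYO1A, NR5A2 and PAX4 were named after their states were seen. The reverse was rare: of the 13144 on genes 15 were off in siUHRF1, 116 in siCONT + TSA, 83 in siUHRF1 + TSA and 185 with 5-aza-dC. CD44, a hyaluronan receptor that was dim at baseline (25.5 and 19.9), was the list gene off in siUHRF1.

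Genes that were on at baseline were tested for change with limma over the 8 siRNA arrays, with Benjamini-Hochberg adjustment over all 23730 probes tested. Of 13142 on genes 0.236% were higher and 0.0152% lower in siUHRF1, 7.15% higher and 4.44% lower in siCONT + TSA, and 14.9% higher and 9.23% lower in siUHRF1 + TSA. These shares rest on both siCONT arrays: without siCONT replicate 1 or 2 the number of probes that passed went from 132 to 49 and 52 in siUHRF1, from 2469 to 43 and 62 in siCONT + TSA, and from 5514 to 1687 and 1652 in siUHRF1 + TSA. Without siCONT + TSA replicate 1 or 2 it was 91 and 69 in siCONT + TSA. The counts of list genes below were not recomputed without an array. All 3 comparisons share the 2 siCONT arrays, and drug goes with the row and siRNA with the columns of the slide, which cannot be told apart from them.

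In siUHRF1 few list genes changed. UHRF1 fell from 1816 and 1837 to 433 and 292, a log2 change of -2.47 (SE 0.141, limma adjusted p = 0.00238). PRSS8, a membrane protease of epithelia, rose from 256 and 273 to 1013 and 1115, a log2 change of 1.90 (SE 0.149, limma adjusted p = 0.00718). S100A4, a calcium-binding protein of motile cells, rose from 89.6 and 91.8 to 302 and 343 (log2 change 1.72, limma adjusted p = 0.0234). All 3 were named for their low p in this comparison, so that the gap between the groups follows from that choice. AREG and CCND3 were higher too. The level probe of VWF was not above background in siCONT (11.3 and 12.7) and read 32.1 and 28.1 in siUHRF1, at least 1.94-fold higher, and since it was tested only because other groups were brighter no p is given for it. The next lowest p values among falling list genes belonged to OCLN (log2 change -0.47, adjusted p = 0.198) and ARID1A (log2 change -0.47, adjusted p = 0.328), which did not pass. PRSS8 lost its call without siCONT replicate 1 (limma adjusted p = 0.0626) or 2 (0.0552). S100A4 lost it without siCONT replicate 1 (0.137) or 2 (0.141), siUHRF1 replicate 2 (0.0643) or either siCONT + TSA array (0.0593), and with normexp background correction (0.075). The 2 arrays of siUHRF1 carried different siRNAs, so that their spread includes that difference.

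In siCONT + TSA 11 of 22 cytoskeleton genes were higher and 1 lower, against 7.15% and 4.44% of all on genes. VIM rose from 216 and 212 to 1377 and 1396, a log2 change of 2.88 (SE 0.124, limma adjusted p = 0.000933). TUBB3, a neuronal tubulin, rose from 3119 and 3177 to 7325 and 7614 (log2 change 1.43, limma adjusted p = 0.00443). CCNB1, the mitotic cyclin, rose from 2209 and 2284 to 4041 and 4288 (log2 change 1.07, limma adjusted p = 0.00583). VIM, TUBB3 and CCNB1 were likewise named for their low p, so that the gap between their arrays is no further support. TUBB3 just missed the threshold without siCONT replicate 1 (limma adjusted p = 0.0512). CCNB1 missed it without siCONT replicate 1 (0.0715) or 2 (0.0689) and without siCONT + TSA replicate 1 (0.0598) or 2 (0.0636).

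Of 28 HOX genes on at baseline 7 were higher in siCONT + TSA (25%, against 7.15% of all on genes). Of 28 DNA damage response genes 9 were lower (32.1%, against 4.44%). Another 2 were higher (7.14%), which was near the 7.15% of all on genes. GDF15 fell from 64492 and 64588 to 15723 and 16212 (log2 change -1.84, limma adjusted p = 0.00849), and EXO1, a repair exonuclease, from 728 and 741 to 265 and 284 (log2 change -1.24, limma adjusted p = 0.00945). CDH3, the P-cadherin gene, read 22.9 and 26.4 at baseline and was not above background with TSA, at least 1.56-fold lower. Since its level with TSA lay below background no p is given for it, and its fitted difference turned to 0.27 with normexp background correction. The calls of GDF15 and EXO1 were lost when any 1 of the 4 siCONT and siCONT + TSA arrays was left out. No ribosomal protein gene passed in this comparison.

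In siUHRF1 + TSA 16 of 22 cytoskeleton genes and 13 of 28 HOX genes were higher and none lower, against 14.9% and 9.23% of all on genes. Of 15 intestinal transcription factors on at baseline 6 were lower and none higher, namely HNF4G, GATA6, FOXA1, ONECUT2, MYB and VDR. CDX2 was not among them. Of 28 proliferation genes 8 were lower (28.6%), namely PCNA, MCM2, MCM4, MCM5, MCM6, CDK2, RRM1 and RRM2. Another 6 of the list were higher (21.4%), among them CCNB1. The repair genes PMS1, EXO1, POLE and POLD1 were lower, and of 28 DNA damage response genes 10 were lower and 2 higher. Of 77 ribosomal protein genes only RPL22 passed, and it was lower. Of the 5 on genes that the study followed, DKK1, CDKN2A and SOCS1 were higher.

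Among list genes the lowest p values of rising and of falling genes in that comparison included those of VIM and TUBB3, and of UHRF1, OCLN and GDF15. UHRF1 fell by 3.17 on the log2 scale (SE 0.141, limma adjusted p = 0.000113). VIM rose by 2.71 (limma adjusted p = 0.000128), to 1541 and 1225. TUBB3 rose by 1.98 (limma adjusted p = 0.00018), to 12315 and 12003. The level probe of VWF read 166 and 130, at least 10.5-fold higher than in siCONT. OCLN, a tight junction protein, fell from 107.8 and 106.9 to 47.4 and 47.4 (log2 change -1.15, limma adjusted p = 0.00148), and GDF15 fell to 23194 and 15757 (log2 change -1.73, limma adjusted p = 0.00221). These genes were named for their low p in this comparison, so that the gap between siCONT and treated arrays follows from that choice.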

How the data were processed

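Total RNA (100 ng) was labeled with 1 colour and hybridized to Agilent SurePrint G3 arrays, and the authors deposited Feature Extraction intensity files. Per the file headers these hold the processed signal after background subtraction, in linear intensity, with spot flags, from version 10.7.3.1 and an hg19 array design. Spots flagged as outliers were left out, spots of a probe averaged, and log2 signals shifted by the 75th percentile of each array. A probe was well above background where at least 50% of its spots carried that flag. The level of a gene was that of its probe of highest mean signal over the 8 siRNA arrays. Probe names came from RefSeq accessions, symbols or synonyms, which matched 31412 of 50599 probes to 21364 genes, and 19187 probes stayed unnamed. Tests took the 23730 probes that passed the background flag in both replicates of 1 siRNA group or more, and were made with limma 3.58.1 in R 4.3.3 over 4 groups, with adjusted p below 0.05. The 5-aza-dC array stayed out of the fit. Tested on simulated siUHRF1 + TSA data of 23730 probes, the fit recovered 68.5% of 200 probes given a log2 change of 1.5. Lower bounds on fold set the mean of the brighter group against the lowest signal above background on each dim array, or the dim probe's own signal if higher.

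The members and the gene lists were chosen with earlier results of these data known. Genes named were those of the 20 brightest named probes, up to 5 on and 5 off genes of each list, all genes the study followed as silenced, UHRF1, ACTB and GAPDH, the 10 off list genes brightest in another siRNA group, the 3 on list genes of lowest p in each direction of each comparison and the 5 genes that differed most between the siCONT arrays. Alternatives changed the background correction, scaling, filter, flag, probe choice, outlier spots, the deposited value table in place of the scanner intensities, the test, replicate block, arrays in the fit and promoter class. Values of a few list genes are not reported here.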

Additional observations from a re-analysis of the deposited data

How the results depend on the processing

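Under 6 alternatives the number of genes on ranged from 13133 to 15251 around 13144, the highest with the weaker test of signal over background (gIsPosAndSignif), which changed the state of 111 of 672 list genes. Of these 41 went from off to on, among them CDKN2B, CACNA1G, IGF2, CLDN4, JUP, CTAG1A, CTAG2, SPANXA1 and SPANXB1. At least 95 of the 100 brightest symbols were shared under each of its 5 alternatives. The median difference between the siCONT arrays was 0.109 without the filter on dim probes, where signals near background enter, and the stricter promoter class put the share on at 82.1%.

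The counts of changed probes depended on the setting, and the cause was not tested. In siUHRF1 132 probes passed, 9 with normexp background correction, 16 when a probe had to be above background on all 8 arrays and 41 with only the 4 arrays compared. In siCONT + TSA 2469 passed, 418 with normexp, 668 without the filter and 9278 with only the 4 arrays. In siUHRF1 + TSA 5514 passed, and 1693 with normexp. The methods' t-test gave 0 after Benjamini-Hochberg and 1847 at an unadjusted p in siUHRF1 (limma had 2113 at an unadjusted p below 0.05), 4344 and 9811 in siCONT + TSA, and 246 and 7077 in siUHRF1 + TSA. Leaving out 1 array gave 49 to 138, 43 to 4684 and 1652 to 7724 probes in the 3 comparisons. Without siCONT replicate 1 or 2 the counts were 49 and 52, 43 and 62, and 1687 and 1652. Without either siCONT + TSA array they were 91 and 69 in siCONT + TSA and 3562 in siUHRF1 + TSA, and without either siUHRF1 array 4684 in siCONT + TSA. The lone array of a group was then assumed to vary like the others. The share of calls that were higher was 62.1% in siCONT + TSA and 49.0% with normexp, and 64.5% in siUHRF1 + TSA and 52.8% with quantile normalization.

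Among named genes 2 values turned direction, both with normexp in siCONT + TSA: CDH3 to 0.27 and UHRF1, which passed in neither setting there, from 0.18 to -0.053. Of the other values of named genes under alternatives, 266 kept their direction and side of the threshold, 48 lost significance and 4 gained it. Deviations of arrays with the same replicate number correlated between -0.0473 and 0.466 over 6 pairs of groups. The highest value was for siUHRF1 and siUHRF1 + TSA, where a number marks 1 siRNA and so pairs the arrays. The other pairs of groups reached at most 0.0796. With the replicate block 136, 2066 and 5306 probes passed. The block changed no call of a named gene given above.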
